A study of Mus musculus with 7 samples.

Results

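The genes described here encode the pool of actin monomers in the cell, the proteins that hold or recycle that pool and subunits of the complex that branches actin filaments. They were chosen by symbol: the thymosins Tmsb4x and Tmsb10, the cytoplasmic actins Actb and Actg1, profilin (Pfn1), cofilin (Cfl1), and the Arp2/3 complex subunits Arpc1b, Arpc2 and Arpc3. All 9 were among the 11753 mouse genes of the main table. Their levels were read in single cells of mammary tumours and blood from mice with the polyoma middle T transgene (PyMT), a breast cancer model, by CEL-seq, which counts the 3′ ends of molecules with molecular barcodes.

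The study sorted cells by surface E-cadherin (Ecad), the epithelial adhesion protein encoded by Cdh1, to compare epithelial with mesenchymal states. In its second experiment, 4 libraries each held 24 wells of BEneg (labelled circulating tumour cells, Ecad-negative), TEneg (solid tumour, Ecad-negative) and TEpos (solid tumour, Ecad-positive). Library 1 also held 24 wells of BEpos (labelled circulating tumour cells, Ecad-positive). The first experiment sorted Ecad-positive tumour cells into libraries of 96 wells. All groups carry the transgene, and the sources used here do not give its promoter, the ages of the mice or how many animals each library pooled, so the spread between libraries may be technical.

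Wells with at least 500 transcripts were used, which left 60 BEneg, 20 BEpos, 69 TEneg and 71 TEpos wells, with medians of 819, 3803, 1603 and 2064 transcripts. Sums per library held 11172 to 25379 transcripts in BEneg, 75125 in BEpos, 17189 to 109892 in TEneg and 27416 to 71894 in TEpos. A single TEneg well gave 55.7% of the TEneg sum of library 2. The labels of the blood wells were set against marker genes. The 7 epithelial genes of the marker list, Cdh1 and Epcam among them, took 0.101 ± 0.0335% of BEneg, 0.00934% of BEpos, 0.290 ± 0.0852% of TEneg and 0.522 ± 0.122% of TEpos transcripts (SD over 4 libraries). The 9 leukocyte genes took 1.57 ± 0.380% of BEneg and 1.18% of BEpos transcripts, against 0.0826 ± 0.0428% in TEneg and 0.0628 ± 0.0290% in TEpos. The 7 neutrophil genes took 7.81 ± 2.71% of BEneg and 2.05% of BEpos transcripts, against 0.260 ± 0.131% in TEneg and 0.246 ± 0.0914% in TEpos. Per library the leukocyte share ran from 1.084% to 2.003% in BEneg, 0.0219% to 0.121% in TEneg and 0.0293% to 0.0995% in TEpos. Of that list, Ptprc was at 0 in BEpos, TEneg and TEpos and had 1 transcript in BEneg, and of the epithelial list Krt19 and Cldn3 were at 0 in BEpos. All 60 BEneg and all 20 BEpos wells held at least 2 transcripts of the leukocyte list, as did 22 of 69 TEneg and 27 of 71 TEpos wells. At least 2 transcripts of the luminal list (Csn3, Wfdc18, Lcn2, Trf and Csn2) were held by 55 of 60 BEneg and 16 of 20 BEpos wells. The same held for 69 of 69 TEneg and 70 of 71 TEpos wells. That list took 0.681 ± 0.231% of BEneg, 0.125% of BEpos, 2.61 ± 0.890% of TEneg and 4.59 ± 0.687% of TEpos transcripts. In blood wells Lcn2 had the most transcripts of the list, at 242 in BEneg and 48 in BEpos. Whether luminal cells were the source of these transcripts was not tested. Cdh1 itself, the gene of the sorted protein, had 26 transcripts in BEneg, 1 in BEpos, 98 in TEneg and 95 in TEpos. In blood wells it did not follow the sort labels, since BEpos is labelled Ecad-positive. TEneg stood 0.0090 above TEpos on the log2 scale (SE 0.32, 95% interval -0.65 to 0.67), which did not pass (edgeR adjusted p = 0.995). The mean level of Cdh1 was 4.16 per 10000 transcripts in TEneg and 5.90 in TEpos, with TEneg higher in 2 of 4 libraries. These values are too imprecise to tell whether Cdh1 followed the sort in tumour wells. The populations are named by their sort below.

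Actin exists as single subunits and as filaments, and moving cells depend on fast exchange between these forms. Thymosins bind the free subunits and keep them from assembling. Profilin hands subunits to growing filament ends, cofilin cuts old filaments and returns subunits to the pool, and the Arp2/3 complex starts new branches on existing filaments. Beta-actin and gamma-actin, the products of Actb and Actg1, differ in only a few amino acids near their start and are both made in nearly all cells. Blood leukocytes are known for large amounts of thymosin beta-4 and for rapid actin turnover.

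The paired genes are alike in coding sequence but distinct at the ends that CEL-seq reads. Tmsb4x lies on chromosome X at 167207093 to 167209315 and Tmsb10 on chromosome 6 at 72957347 to 72958748, both on the minus strand of GRCm38 (mm10). Their coding sequences have 135 bases each and 95 of them, or 70.4%, are identical. They are shown whole from the GENCODE vM21 transcripts, because the thymosins are the pair with the most unequal counts, with the bases that differ in capitals.
Tmsb4x: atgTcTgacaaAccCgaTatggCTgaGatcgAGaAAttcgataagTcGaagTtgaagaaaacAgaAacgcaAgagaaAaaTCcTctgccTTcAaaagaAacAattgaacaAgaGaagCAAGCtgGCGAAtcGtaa
Tmsb10: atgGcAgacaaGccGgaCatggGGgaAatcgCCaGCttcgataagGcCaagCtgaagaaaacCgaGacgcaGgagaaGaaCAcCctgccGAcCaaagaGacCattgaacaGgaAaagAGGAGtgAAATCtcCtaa
Actb lies on chromosome 5 at 142903115 to 142906754 and Actg1 on chromosome 11 at 120345690 to 120348542, again both on the minus strand. Their coding sequences of 1128 bases each are 88.7% identical. The first 60 coding bases hold the codons for the amino acids in which the proteins differ near the start, with differing bases in capitals.
Actb: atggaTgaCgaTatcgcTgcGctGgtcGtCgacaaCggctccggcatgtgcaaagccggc
Actg1: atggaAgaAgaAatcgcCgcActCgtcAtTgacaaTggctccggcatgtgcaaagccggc
In the 3′ untranslated regions the longest run of bases shared by the 2 actin genes was 11 bases, and by the 2 thymosin genes 8 bases. Reads were 75 bases long. Over the last 500 bases of each transcript, 8 of the 9 genes had no other annotated gene with at least 95% identity over at least 75 bases. Tmsb10 had 6 such genes, of which 4 are pseudogenes, and 0 of the 6 had a row in the table of the second experiment.

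Pfn1 lies on chromosome 11 at 70651850 to 70654644 (minus strand), Cfl1 on chromosome 19 at 5490455 to 5495201, Arpc1b on chromosome 5 at 145114215 to 145130705, Arpc2 on chromosome 1 at 74236084 to 74268209 and Arpc3 on chromosome 5 at 122391878 to 122414184 (all 4 on the plus strand).

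Of the 8 genes tested, Tmsb4x had the largest difference between BEneg and both tumour populations. Its level, in transcripts per 10000 transcripts of the sum, was 248, 180, 132 and 187 in BEneg libraries 1 to 4. It was 48.5, 30.9, 46.7 and 28.2 in TEneg and 37.6, 25.5, 31.8 and 29.6 in TEpos. All 4 BEneg sums lay above all TEneg and TEpos sums, and the TEneg and TEpos sums overlapped. Because each molecule is counted at its 3′ end, levels of different genes need no correction for length. Some widely expressed genes were nearly missing from the counts of the second experiment, as described below. Ranks therefore describe the counts and not the order of transcripts in the cells. By mean level Tmsb4x ranked 3rd of the 7100 genes with transcripts in BEneg, 16th of 10112 in TEneg and 47th of 9592 in TEpos. In BEpos, present in library 1 only, its level was 160 (exact 95% Poisson interval 151 to 170, counting error only), the highest of all genes there.

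Relative to TEneg, Tmsb4x rose in BEneg by 2.48 on the log2 scale (SE 0.22, edgeR adjusted p = 5.75e-10), and relative to TEpos by 2.91 (SE 0.22, edgeR adjusted p = 2.09e-11). Between TEneg and TEpos it did not pass the test (0.43 on the log2 scale, SE 0.22, edgeR adjusted p = 0.316), although TEneg was the higher of the pair in 3 of 4 libraries. Without the TEneg well of over 20000 transcripts, where Tmsb4x stood at 15.9 per 10000, this difference was 0.68 and passed (edgeR adjusted p = 0.0210). Over single wells the order was the same. The median well held 206 Tmsb4x transcripts per 10000 in BEneg, 152 in BEpos, 32.9 in TEneg and 25.6 in TEpos. Of the wells, 54 of 60 BEneg, 16 of 20 BEpos and 5 of 69 TEneg wells lay above the highest TEpos well, which was at 109. The monocyte and macrophage list took 0.981 ± 0.305% of BEneg and 0.133% of BEpos transcripts, against 0.0288 ± 0.0234% in TEneg and 0.0115 ± 0.00747% in TEpos. This share and the leukocyte and neutrophil shares given above moved with Tmsb4x between blood and tumour wells. Their part in the difference was not tested. Platelets are also rich in this thymosin. The platelet list, of 5 genes of which 4 were measured, took 0.00398 ± 0.00559% of BEneg and 0.00667% of BEpos transcripts. It took 0.00250 ± 0.00229% of TEneg and 0.000769 ± 0.000895% of TEpos transcripts. In BEneg it rested on 2 transcripts each of Pf4 and Ppbp, with Itga2b and Gp9 at 0. The part of platelets in the Tmsb4x difference was not tested.

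**Figure D1:**
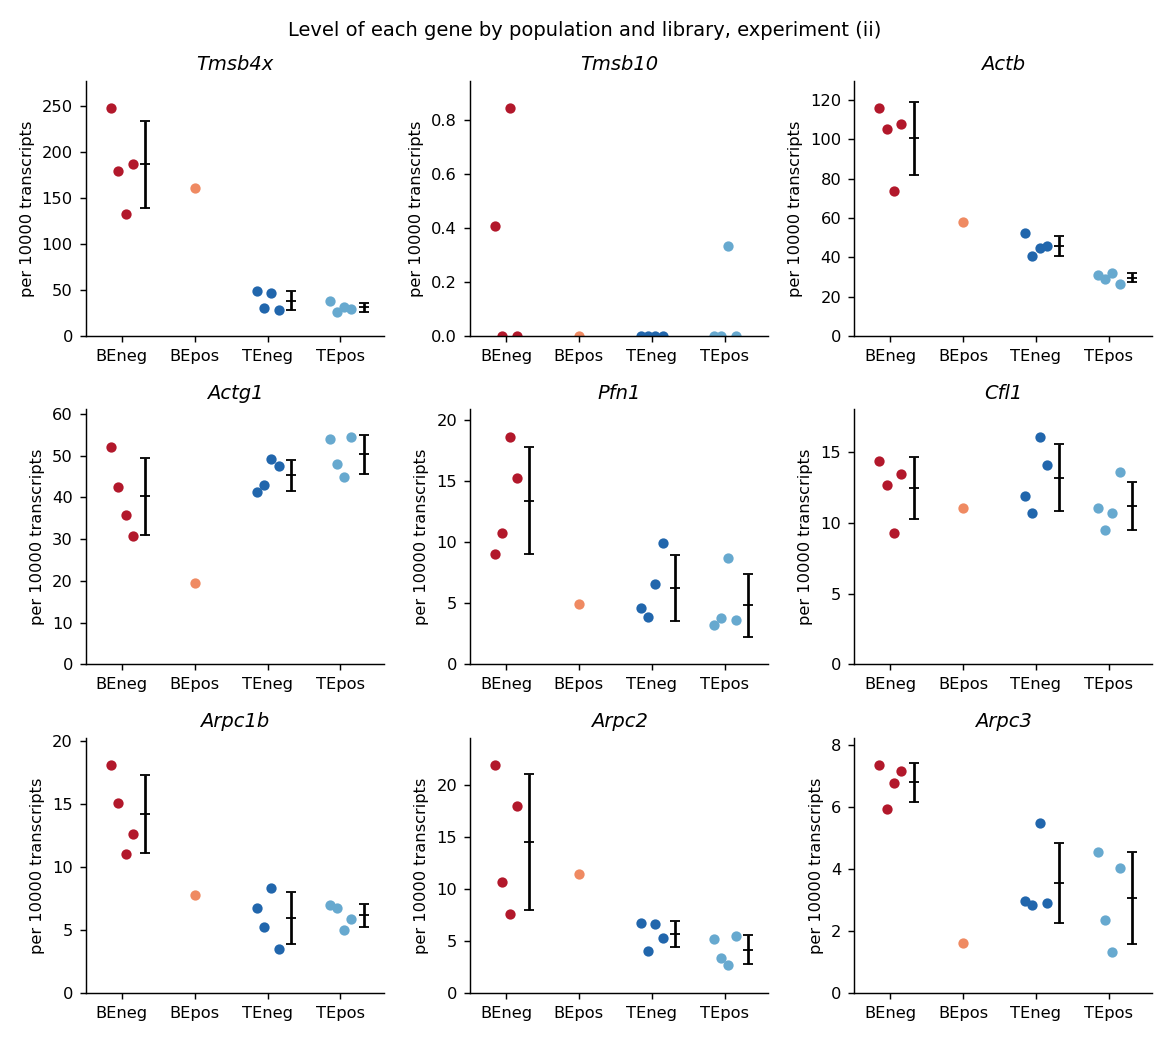
Transcripts per 10000 (vertical axes, each from 0) of the 9 genes in the second experiment, by sorted population; each point is the sum of the wells of 1 library, and black bars give the mean and SD of 4 libraries (not drawn for Tmsb10). Tmsb4x and Actb of BEneg sit above both tumour populations in every library, Actg1 and Cfl1 overlap between them, and Tmsb10 stays under 0.9.

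Tmsb10, the closest relative of Tmsb4x, was almost absent from the counts of the second experiment. The 4 BEneg libraries held 1, 0, 1 and 0 transcripts of it, with 0 in all TEneg libraries, 0, 0, 1 and 0 in TEpos and 0 in BEpos. It was the single member that did not pass the filter on low counts, so the tests below cover 8 of the 9 genes. Over the same wells Tmsb4x had 1431 transcripts in BEneg, 1205 in BEpos, 655 in TEneg and 585 in TEpos. In the first experiment, by contrast, Tmsb10 had 313 transcripts in library 1 and 64 in library 2, or 7.15 (95% interval 6.37 to 7.98) and 9.19 (7.04 to 11.7) per 10000. There it was found in 71 of 95 and 37 of 65 wells, and Tmsb4x exceeded it 3.93-fold (3.47 to 4.47) and 7.03-fold (5.43 to 9.33).

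The 2 experiments have separate tables, and the low Tmsb10 count of the second is not particular to this gene. Of 263 genes with at least 5 transcripts per 10000 in library 1 of the first experiment, 24 stood at 0.2 or less in TEpos of the second, Tmsb10 among them. The other 23 include widely expressed genes such as the glycolysis enzymes Aldoa and Ldha, with 0 transcripts each in the second table. The near-zero Tmsb10 count there can therefore not be read as absence of the transcript from these cells, and the balance of the 2 thymosins was not compared between populations. Whether the 6 genes nearly identical to Tmsb10 at the end bear on its count was not tested.

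Actb, which encodes beta-actin, separated all 3 populations. Its level was 116, 105, 73.6 and 108 per 10000 in BEneg libraries 1 to 4. It was 52.3, 40.6, 44.6 and 45.5 in TEneg and 30.8, 28.9, 32.1 and 26.6 in TEpos. No BEneg sum overlapped a TEneg sum and no TEneg sum overlapped a TEpos sum. In BEpos it was 57.8 (95% interval 52.6 to 63.6). Actb rose in BEneg by 1.33 relative to TEneg (SE 0.19, edgeR adjusted p = 1.94e-06) and by 2.07 relative to TEpos (SE 0.19, edgeR adjusted p = 1.03e-09). In TEneg it rose by 0.74 relative to TEpos (SE 0.19, edgeR adjusted p = 0.0139), with TEneg above TEpos in 4 of 4 libraries. That last call was lost without the library block (0.75, adjusted p = 0.0689), without library 1 (0.69, adjusted p = 0.197) and with no filter on low counts (0.37, adjusted p = 0.724).

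Shares of marker genes of other cell types also differed between the tumour populations. The share of basal and myoepithelial genes was 0.420 ± 0.351% in TEneg and 0.0361 ± 0.00777% in TEpos, and that of endothelial genes was 0.0412 ± 0.0218% in TEneg and 0.00459 ± 0.00372% in TEpos. Of the 69 TEneg wells, 37 lay above every TEpos well in the leukocyte, endothelial or basal share. For the endothelial list 23 did, where the highest TEpos well was at 6.80 per 10000. Only 15 TEneg wells held 2 or more endothelial transcripts, so some of these 23 rest on a single transcript. Without the 37 wells the Actb difference was 0.58 (SE 0.23) and did not pass (edgeR adjusted p = 0.322). The wells were chosen after seeing the data, and only TEneg wells could be left out. The lost call therefore says nothing about a cause, and the part of other cell types in the Actb difference was not tested.

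Actg1, which encodes gamma-actin, did not follow Actb. Its level was 52.1, 42.4, 35.7 and 30.7 per 10000 in BEneg libraries 1 to 4. It was 41.4, 42.996, 49.2 and 47.5 in TEneg and 53.9, 47.9, 44.98 and 54.5 in TEpos. The 3 populations overlapped, and the BEneg share was below the TEpos share of the same library in 4 of 4 libraries. In BEpos it was 19.5 (95% interval 16.5 to 22.999). With TMM scaling the log2 fold changes were 0.05 in BEneg over TEneg (95% interval -0.34 to 0.44), 0.02 in BEneg over TEpos (-0.36 to 0.40) and -0.03 in TEneg over TEpos (-0.39 to 0.33), none of which passed edgeR's test. The sign turned with the scaling: with plain library totals the values were -0.39, -0.38 and 0.01. That scaling set the median of all genes tested to -0.49 in BEneg over TEneg and -0.48 in BEneg over TEpos, against -0.05 and -0.08 with TMM, so relative to the median Actg1 lay slightly above it in both.

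The balance of the 2 actin genes needs no scaling between libraries, since both are counted in the same sum. Actb made up 68.97%, 71.3%, 67.3% and 77.8% of the Actb and Actg1 transcripts in BEneg libraries 1 to 4. The share was 55.8%, 48.6%, 47.6% and 48.95% in TEneg and 36.3%, 37.6%, 41.6% and 32.8% in TEpos. The populations did not overlap, and in each library BEneg was highest, TEneg between and TEpos lowest. Counts of Actb thus exceeded those of Actg1 in every BEneg sum and lay below them in every TEpos sum. How fully each gene was recovered was not measured. The shares therefore show a shift between populations and not which actin transcript is more frequent in the cells.

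On the log2 scale the Actb to Actg1 ratio averaged 1.33 ± 0.34 in BEneg, 0.01 ± 0.22 in TEneg and -0.76 ± 0.23 in TEpos (SD, n = 4 libraries). The differences were 1.32 for BEneg over TEneg, 2.09 for BEneg over TEpos and 0.78 for TEneg over TEpos. Each gave p = 0.0286 in a two-sided exact permutation test of 4 against 4 libraries, which is the smallest p that 70 arrangements allow, and also 0.0286 after Benjamini-Hochberg adjustment over the 3 tests. These tests share populations, and Actb and Actg1 were also tested singly above. Sign flips within libraries, which keep the library as a block, gave an exact p = 0.125 for each, the smallest that 4 pairs allow. Without the 37 TEneg wells above every TEpos well in a marker share, chosen after seeing the data, the TEneg over TEpos difference was 0.56. The libraries still did not overlap (exact permutation p = 0.0286). The leukocyte share moved with the balance between blood and tumour wells, and its part was not tested.

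**Figure D2:**
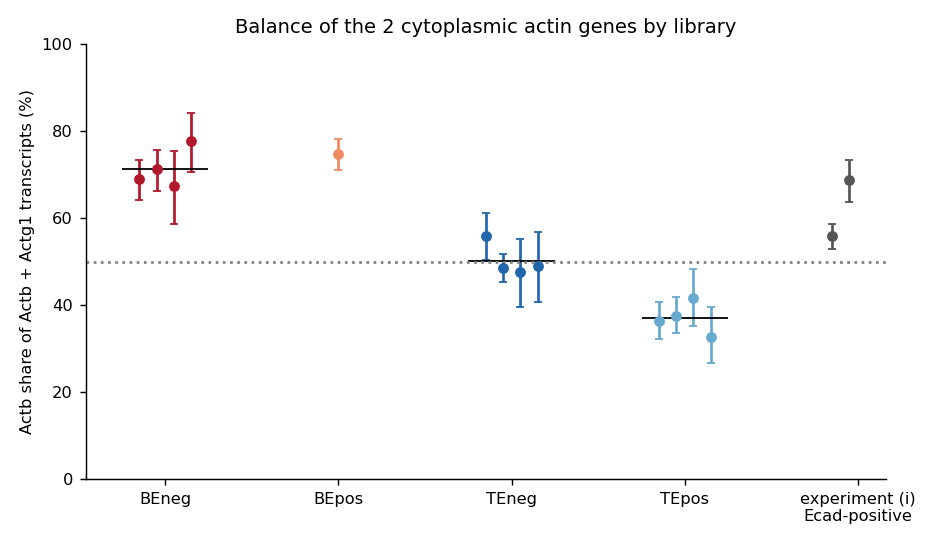
Actb as a percentage of Actb and Actg1 transcripts (vertical axis) by sorted population and, at the right, in libraries 1 and 2 of the first experiment; points are libraries, bars exact 95% binomial intervals (counting error only), black lines means of 4 libraries, and the dotted line marks 50%. BEneg libraries lie at 67.3% to 77.8%, TEneg at 47.6% to 55.8% and TEpos at 32.8% to 41.6%.

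BEpos resembled BEneg in this measure, with an Actb share of 74.8% (exact 95% binomial interval 71.01% to 78.2%) in its single library, which was not tested. The Ecad-positive tumour cells of the first experiment did not match the TEpos wells of the second: Actb made up 55.9% (52.98% to 58.7%) in library 1 and 68.7% (63.8% to 73.3%) in library 2. These tables were made separately, so no test was run. Library 2 of that experiment held more transcripts of other cell types than library 1, with 0.374% against 0.0117% for the leukocyte list and 0.482% against 0.0145% for the basal list, and their part in its Actb share was not tested.

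Single wells showed the same order. Actb exceeded Actg1 in 55 of 60 BEneg, 19 of 20 BEpos, 40 of 69 TEneg and 11 of 71 TEpos wells. Actg1 exceeded Actb in 3, 1, 23 and 52 wells of these populations. The highest Actg1 well, a TEneg well at 317 per 10000, lay above the highest wells of the other populations, at 104 in BEneg, 47.8 in BEpos and 122 in TEpos.

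**Figure D3:**
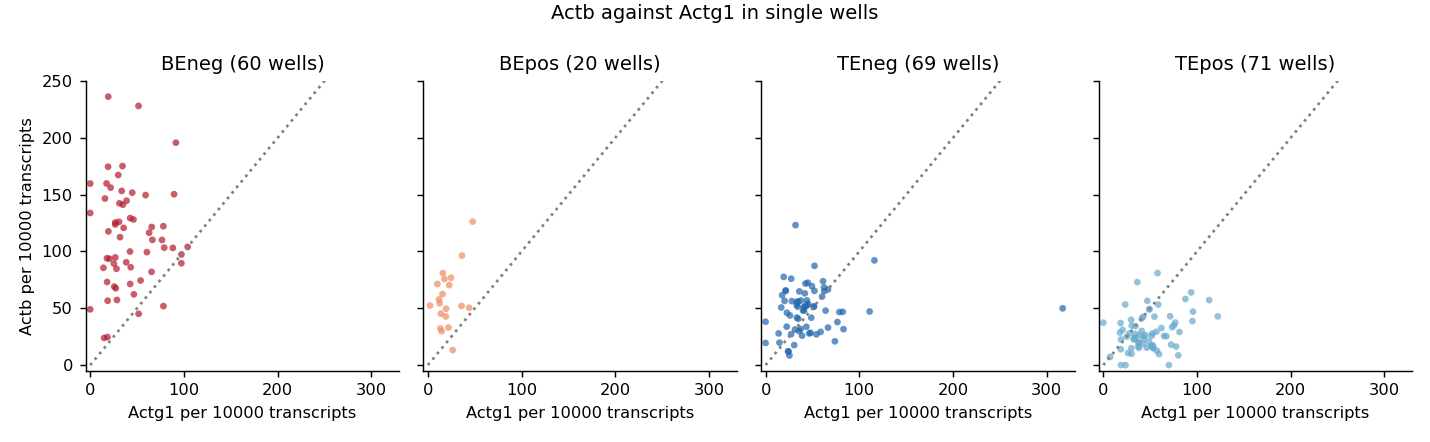
Actb (vertical axis) against Actg1 (horizontal axis) in transcripts per 10000 for each used well, by population; each point is 1 well and the dotted line marks equal levels. BEneg and BEpos wells lie mostly above the line (55 of 60 and 19 of 20), TEneg wells on both sides (40 of 69 above) and TEpos wells mostly below (11 of 71 above).

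Among the promoter windows of RefSeq (GRCm38.p6, 250 bases before to 50 after each gene's start), 8 of the 9 genes had a window; Actb had none. A CArG box, the element read by serum response factor, was searched on both strands, and 1 of the 10 member windows held it, that of Actg1, against 1.63% of 32851 windows of all genes. The RefSeq start of Actg1, at 120348495, lies inside the GENCODE gene, whose start is at 120348542. The 100 bases before the GENCODE start (chr11:120348543-120348642, minus strand) are shown because Actg1 is the actin gene whose level did not pass any test, with the box in capitals. It begins 90 bases before the RefSeq start and 43 bases before the GENCODE start.
Actg1 promoter: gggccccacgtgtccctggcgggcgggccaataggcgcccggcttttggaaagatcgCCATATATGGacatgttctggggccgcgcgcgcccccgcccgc
Such a match describes the letters in the window and is not evidence of binding. Srf itself had 5, 4, 14 and 12 transcripts over all wells of BEneg, BEpos, TEneg and TEpos and did not pass the filter on low counts.

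Of the genes that recycle actin subunits, Pfn1 rose in BEneg and Cfl1 did not pass. Pfn1 had 9.01, 10.7, 18.6 and 15.3 transcripts per 10000 in BEneg libraries 1 to 4, against 4.58, 3.89, 6.62 and 9.96 in TEneg and 3.21, 3.79, 8.69 and 3.66 in TEpos. BEneg was above TEneg in each library although the ranges overlapped, and all BEneg sums were above the TEpos sums. The rise was 1.32 relative to TEneg (SE 0.29, edgeR adjusted p = 0.000467) and 1.77 relative to TEpos (SE 0.29, edgeR adjusted p = 8.39e-06). The call over TEneg was lost with wells of at least 1500 transcripts (1.23, edgeR adjusted p = 0.0991). In BEpos Pfn1 stood at 4.95 (3.47 to 6.79), within the range of the tumour wells. Cfl1 overlapped between all populations, at 9.32 to 14.4 in BEneg, 11.02 in BEpos, 10.7 to 16.1 in TEneg and 9.48 to 13.6 in TEpos. Its log2 fold changes were 0.18 in BEneg over TEneg (edgeR adjusted p = 0.56) and 0.53 in BEneg over TEpos (edgeR adjusted p = 0.0561). The difference over TEpos passed with wells of at least 1500 transcripts (0.85, edgeR adjusted p = 0.0493), without the largest well (0.60, adjusted p = 0.0243), with barcodes seen in place of estimated counts (0.62, adjusted p = 0.0205) and without library 3 (0.65) or 4 (0.66). With plain library totals the difference over TEneg had the opposite sign, at -0.26.

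The 3 Arp2/3 subunit genes rose in BEneg over both tumour populations. Arpc2, part of the core that holds the complex on the mother filament, had 21.9, 10.7, 7.60 and 18.03 transcripts per 10000 in BEneg libraries 1 to 4. It had 6.75, 4.09, 6.62 and 5.25 in TEneg and 5.23, 3.36, 2.66 and 5.49 in TEpos. Arpc1b, which with its relative Arpc1a can supply the same subunit, was at 10.99 to 18.04 in BEneg, 3.50 to 8.31 in TEneg and 4.99 to 6.94 in TEpos. Arpc3, a small subunit, was at 5.94 to 7.36 in BEneg, 2.84 to 5.51 in TEneg and 1.33 to 4.55 in TEpos. For each of these genes every BEneg sum lay above every tumour sum.

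Relative to TEneg, Arpc2 rose by 1.56 (SE 0.28, edgeR adjusted p = 5.31e-05), Arpc1b by 1.49 (SE 0.28, adjusted p = 6.17e-05) and Arpc3 by 1.17 (SE 0.38, adjusted p = 0.0137). Relative to TEpos the rises were 2.12, 1.53 and 1.45 (edgeR adjusted p = 4.48e-07, 2.26e-05 and 0.00186). Arpc3 rests on 8 to 18 transcripts per BEneg library, 5 to 31 per TEneg library and 4 to 27 per TEpos library. It passed the filter on low counts through BEneg, so its rises are not independent of that filter. Its call over TEneg was lost without library 1 (1.03, edgeR adjusted p = 0.0977) and with plain library totals (0.73, edgeR adjusted p = 0.0956). In BEpos Arpc2 was at 11.5 (9.16 to 14.1), Arpc1b at 7.78 (5.86 to 9.98) and Arpc3 at 1.604 (0.825 to 2.79). The Arpc3 level of BEpos lay below all 4 BEneg sums, of which library 1, shared with BEpos, was at 7.36. Between TEneg and TEpos none of the 3 passed, with log2 fold changes of 0.57 for Arpc2, 0.03 for Arpc1b and 0.28 for Arpc3 (edgeR adjusted p = 0.316, 0.973 and 0.720).

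Of the 8 members tested, 6 rose and 0 fell in BEneg over TEneg, where 41% of the 490 genes tested were called in either direction, 23.9% as higher and 17.1% as lower. The BEneg libraries lay wholly above the TEneg libraries in 5 of the 8 and wholly below in 0, beside 19.4% and 14.7% of all genes tested, or 34.1% in either direction. The members' median log2 fold change was 1.33, beside -0.05 for all genes tested. In BEneg over TEpos 6 rose and 0 fell, beside 48.2% of all genes called, 27.1% called higher and 21% called lower, with a median of 1.65 beside -0.08. There the BEneg libraries lay wholly above in 6 and wholly below in 0, beside 21.8% and 25.9% of all genes, or 47.8% in either direction. In TEneg over TEpos 1 member, Actb, was called higher, beside 6.33% of all genes called, 4.69% called higher and 1.63% called lower, with a median of 0.39 beside -0.01. There the TEneg libraries lay wholly above in 1 and wholly below in 0, beside 5.51% and 6.94% of all genes, or 12.4% in either direction. With plain library totals 99 genes were called higher and 187 lower in BEneg over TEneg, against 117 and 84 with TMM, and 110 and 188 against 133 and 103 in BEneg over TEpos. The comparisons share their TEneg, TEpos or BEneg sums, so they are not independent. Arpc3 is counted among the risen and non-overlapping members of both BEneg comparisons. It passed the filter on low counts through BEneg, so it adds no independent support to those counts. Together the 9 genes took 3.89 ± 0.781% of BEneg, 2.75% of BEpos, 1.64 ± 0.189% of TEneg and 1.41 ± 0.106% of TEpos transcripts.

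**Figure D4:**
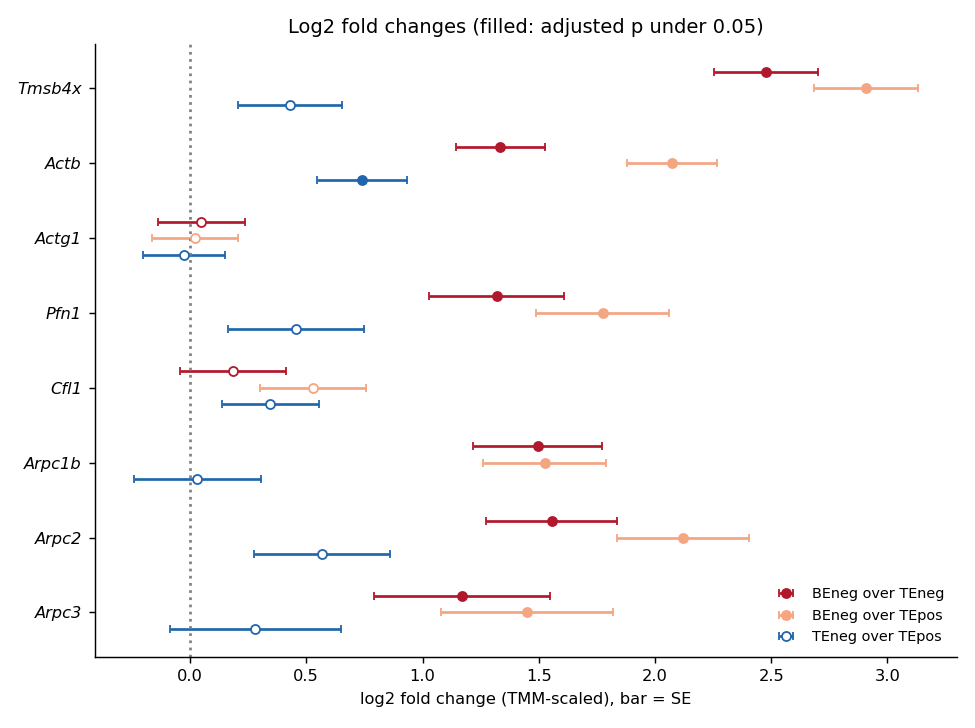
Log2 fold changes with TMM scaling (horizontal axis) of the 8 tested genes in 3 comparisons; bars are standard errors, and filled points have a Benjamini-Hochberg adjusted p under 0.05 in edgeR. Actg1 and Cfl1 have open points throughout, and the sign of their smallest values turns with the scaling; Actb is the only filled point of TEneg over TEpos.

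Other genes of the actin pathway were read from 8 lists that hold 55 genes, of which 44 were in the table and 10 passed the filter. In BEneg over TEneg 5 of the 10 rose and 2 fell, beside 23.9% of all genes tested called higher and 17.1% called lower. The largest rises were those of Rac2 (6.13, SE 0.50), a small GTPase of blood cells, Coro1a (5.44, SE 0.62), a coronin that binds Arp2/3 in leukocytes, and Arhgdib (4.64, SE 0.50). Their edgeR adjusted p-values were 1.004e-10, 4.28e-08 and 1.88e-08. Rac2 and Coro1a are also on the leukocyte marker list. Actr2, which encodes the Arp2 subunit itself, rose by 1.13 and Arpc5, a small subunit, by 1.38 (edgeR adjusted p = 0.00110 and 0.00285).

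The 2 genes that fell in BEneg over TEneg were Dstn, which encodes the cofilin relative destrin, by 1.31 (SE 0.35, edgeR adjusted p = 0.00333), and Acta2, the smooth muscle actin, by 4.33 (SE 0.57, adjusted p = 4.89e-07). Acta2 is also on the basal marker list, and its 280 TEneg transcripts stood against 6 in BEneg and 26 in TEpos. In BEneg over TEpos 8 of the 10 rose and 0 fell, beside 27.1% of all genes tested called higher and 21% called lower. Among the 8 were the widely expressed GTPase genes Rac1 (1.096) and Cdc42 (0.92, edgeR adjusted p = 0.0499). Rac2, Coro1a and Arhgdib, which passed the filter through BEneg, were also among them. In TEneg over TEpos the single call among the 10 was Acta2, higher by 3.78, beside 4.69% of all genes tested called higher and 1.63% called lower. Actr3 and Arpc4, further Arp2/3 subunits, had 1 transcript each over the used wells of the second experiment, against 44 and 41 in library 1 of the first, so like Tmsb10 they cannot be read there as absent.

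**Figure D5:**
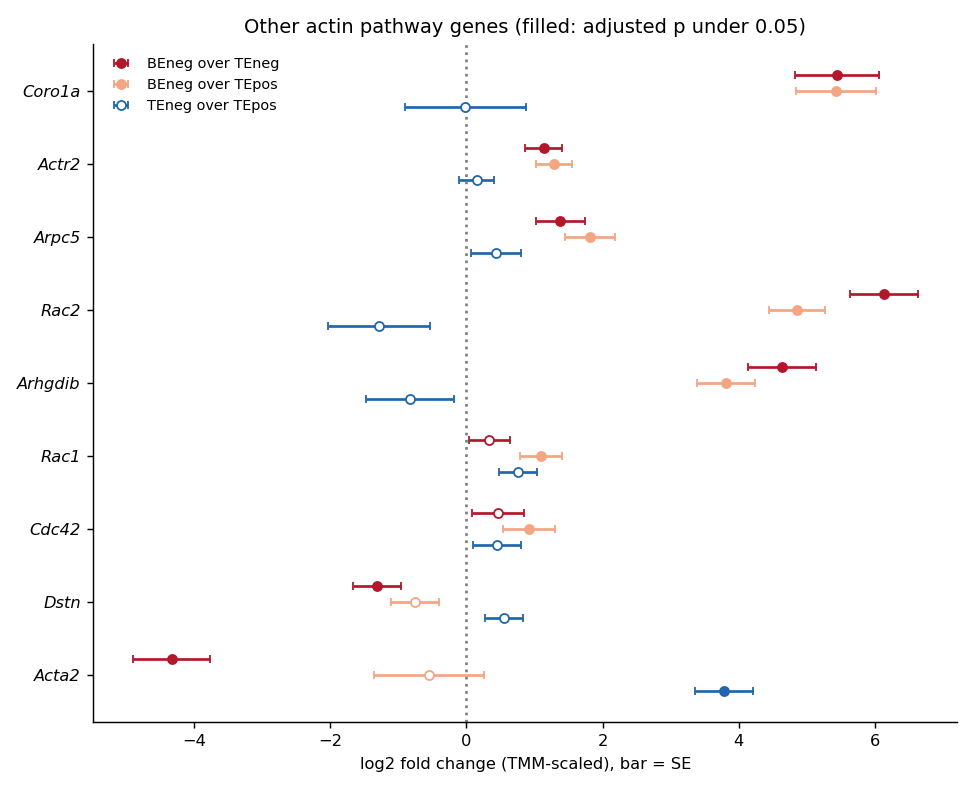
Log2 fold changes with TMM scaling (horizontal axis) of 9 of the 10 tested genes from the other actin lists; bars are standard errors and filled points have an adjusted p under 0.05 in edgeR. Rac2, Coro1a and Arhgdib lie above 3.8 in both comparisons of BEneg, and Acta2 is the single filled point of TEneg over TEpos.

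For Tmsb4x, Actb and Actg1, the genes whose log2 level followed each most closely over the 12 sums were named by Pearson's r. They were sought among the 490 genes tested. These are descriptions over sums that share libraries and differ mainly in population. For Tmsb4x they were Alox5ap, Srgn and Tyrobp (r = 0.987, 0.987 and 0.984). For Actb they were Ifitm3, Srgn and Emb (r = 0.970, 0.961 and 0.960). For Actg1 the closest genes, Uqcrh, Oaz1 and Cox7b, reached only 0.757, 0.736 and 0.723. Srgn, on the lists of both Tmsb4x and Actb, and Tyrobp are on the leukocyte marker list.

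Within the first experiment the largest members had the same order in both libraries. Tmsb4x was highest in both libraries, at 28.1 and 64.6 per 10000, followed by Actb at 15.0005 and 37.9 and Actg1 at 11.8 and 17.3. Pfn1 was lowest, at 0.505 and 1.003, whereas Arpc3, at 5.35 and 9.92, and Arpc1b, at 5.22 and 10.9, stood above Cfl1, at 3.57 and 5.74. All 9 genes were higher in library 2, which had a median of 883 transcripts per used well, than in library 1, with 3083. In the second experiment Tmsb4x, Actb and Actg1 kept this order by mean level in BEneg and BEpos. Actg1 was instead the highest member in TEpos, at 50.3, and Actb in TEneg, at 45.8 with Actg1 at 45.3. Cfl1 was above Arpc1b and Arpc3 in every TEneg and TEpos library. These levels come from separate tables and were not tested against each other.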

How the data were processed

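The authors deposited an estimated count of transcripts for each gene in each well, without scaling wells to each other. Every value equals 256 × ln(256/(256 − k)), where the integer k is the number of molecular barcodes seen. Reads were mapped with BWA 0.6.2-r126 to mm10, per the submitters' processing notes. How reads were counted is not given in the sources. The largest k of a member was 147, well under the limit of 256. Spike-ins were left out, and 0 wells held identical values.

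Estimated counts of wells with at least 500 transcripts were summed per library and population and rounded. The 12 BEneg, TEneg and TEpos sums were fitted together with edgeR 4.0.16 (R 4.3.3, quasi-likelihood test, TMM, filterByExpr) with library as a block, and p-values were adjusted by Benjamini-Hochberg over all 490 genes tested, with a threshold of 0.05. The block comes from the barcode table, in which each library holds wells of every tested population; same-library residuals had correlations of 0.0608 to 0.351. Wells were meant to hold 1 cell, so no doublet caller was run. The balance used exact permutation tests (scipy 1.17.1); thymosin balance tests were planned but not run, since Tmsb10 was 0 in 9 of the 12 sums, so adjustment was over 3 tests. Copies were searched with BLAST. The members and lists were chosen with earlier results of these data known. Named were all members, the called genes of the other actin lists (up to 10 with the largest change) and the 3 genes closest to each of Tmsb4x, Actb and Actg1. The values of 1 called gene of those lists are not reported here. Alternatives were other scalings, filters, tools, well minimums and libraries left out.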

Additional observations from a re-analysis of the deposited data

Results flagged for a closer look

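In 27 groups of 4 libraries, 3 values lay apart from the other libraries by Dixon's criterion at 95%, and chance alone flags about 1 in 20 groups. Pfn1 in TEpos was at 8.69 per 10000 in library 3, with the nearest other library at 3.79. Arpc3 in TEneg was at 5.51 per 10000 in library 3, with the nearest at 2.96. The log2 Actb to Actg1 ratio in TEneg was 0.34 in library 1, with the nearest at -0.06. Library 3 of the first experiment, of which 1 well reached 500 transcripts, entered no comparison. Over all its wells it held 247 Tmsb4x transcripts, or 176 per 10000, and 43 Actb transcripts, or 30.7 per 10000, where 3 transcripts would be 2.14 per 10000.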

How the results depend on the processing

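The rises of Tmsb4x, Actb, Arpc1b and Arpc2 in BEneg over both tumour populations passed under every alternative run, as did that of Pfn1 over TEpos. Thinning wells to 500 transcripts moved the share of wells with a member by more than the SD over 4 libraries in 23 of 24 cases and, in BEpos, out of its exact 95% binomial interval in 6 of 8. Of 64 recomputed levels, 4 moved by more than that SD or, in BEpos, than the counting error. The Actb to Actg1 differences kept their direction throughout. With libraries left out they ran from 1.13 to 1.48 for BEneg over TEneg, 1.84 to 2.28 for BEneg over TEpos and 0.66 to 0.92 for TEneg over TEpos (exact permutation p = 0.1, the smallest 3 against 3 allows). With wells of at least 1500 transcripts, which leaves 2 BEneg libraries, they were 1.17 and 1.90 for BEneg over TEneg and TEpos (2 against 4 libraries, exact permutation p = 0.0667, the smallest possible). There TEneg over TEpos was 0.73 (4 against 4, exact permutation p = 0.0286, or 0.0667 adjusted over the 3 tests), and with the library as a block the differences were 1.32, 2.09 and 0.78 (exact sign flips, p = 0.125).

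In BEneg over TEneg, Actg1 was -0.39 with library totals, -0.13 with no filter on low counts, -0.23 with only the populations compared fitted, -0.018 without the well over 20000 transcripts, -0.17 with limma on library means of wells and -0.19 to 0.21 with libraries left out. Cfl1 was -0.26 with library totals, -0.10 with only the populations compared and -0.23 with limma. Pfn1 was 1.23 with wells of at least 1500 transcripts and no longer passed. Arpc3 no longer passed at 0.73 with library totals, 1.0 with no filter and 0.56 with limma, nor without library 1 (range 1.03 to 1.37). Genes called numbered 461 with no filter and 123 with wells of at least 1500 transcripts, against 201.

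In BEneg over TEpos, Actg1 was -0.38 with library totals, -0.51 with no filter, -0.18 with only the populations compared, -0.26 with limma and -0.13 to 0.24 with libraries left out. Cfl1 passed at 0.85 with wells of at least 1500 transcripts, 0.60 without the largest well, 0.62 with barcodes seen in place of estimated counts, and without library 3 or 4 (range 0.42 to 0.66), and was -0.062 with limma. Arpc3 did not pass at 0.94 with no filter and 0.68 with limma. Genes called numbered 581 with no filter and 133 with wells of at least 1500 transcripts, against 236.

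In TEneg over TEpos, Tmsb4x passed at 0.68 without the largest well and 0.67 with limma. Actb did not pass at 0.37 with no filter, 0.75 without the replicate block and without library 1 (range 0.69 to 0.82). Nor did it pass at 0.58 without the 37 TEneg wells above every TEpos well in a marker share (the marker wells, chosen after seeing the data). Members called higher were 0 with no filter, without the block and without the marker wells, 2 without the largest well and with limma, and 0 to 1 with libraries left out. Genes called were 99, 20, 10 and 55 with no filter, no block, no marker wells and no largest well, and 19 to 42 with libraries left out, against 31. Actg1 was 0.014 with library totals, 0.10 with wells of at least 1500 transcripts, 0.11 without the largest well, 0.035 without the marker wells and -0.084 to 0.059 with libraries left out. Cfl1 was -0.014 with no filter and -0.085 without the marker wells. Arpc1b was -0.32 with no filter, -0.23 with limma and -0.17 to 0.18 with libraries left out. Arpc3 was -0.059 with no filter and -0.075 to 0.62 with libraries left out. The cause of these shifts was not tested. Pfn1 and the Arp2/3 genes had few transcripts per library. Arpc3 had as few as 8 in a BEneg, 5 in a TEneg and 4 in a TEpos library.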
